A study of Mus musculus with 12 samples.

Results

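The 10 genes described here encode the enzymes that build, lengthen and desaturate fatty acids in the cytosol and the endoplasmic reticulum. They were fixed by symbol and found by their Ensembl mouse gene identifiers. All 10 were among the 37583 gene identifiers of the count files, and all 10 passed the filter on low counts that left 11819 genes for testing. They are Acly, Acaca and Fasn, which make palmitate, the elongase genes Elovl1, Elovl5 and Elovl6, the stearoyl-CoA desaturase genes Scd1 and Scd2, and the polyunsaturated fatty acid desaturase genes Fads1 and Fads2.

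Expression was measured by RNA sequencing in 6 clones lacking Taz, named 3G, 3H and 3I and 4J, 4K and 4L, and in 6 wild-type clones, named 1A, 1B and 1C and 2D, 2E and 2F. Taz encodes Tafazzin, an acyltransferase of mitochondria that remodels the fatty acid chains of cardiolipin. All 12 clones are granulocyte-monocyte progenitors of C57BL/6 background, derived from fetal liver at embryonic day 15.5. Both genotypes carry a retroviral ER-Hoxb8 fusion, which holds progenitors in an immature, dividing state while estradiol is present, and all were kept in medium with 10% fetal bovine serum, 0.5 µM estradiol and conditioned medium equal to some 50 ng/ml of stem cell factor. Serum supplies fatty acids and cholesterol to both genotypes. Each line is a single-cell clone, and the labels do not say how many embryos the clones came from or what the number in each clone name means. Should same-numbered clones descend from 1 line and be more alike for it, the p-values below would be too small. Over all genes the correlation of same-numbered clones was estimated at -0.17 by limma-voom. Between clone numbers within a genotype 0% of all genes were called by edgeR.

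Acetyl-CoA for fatty acid synthesis is released from exported mitochondrial citrate by ATP citrate lyase (Acly), carboxylated to malonyl-CoA by acetyl-CoA carboxylase (Acaca) and condensed to palmitate by fatty acid synthase (Fasn). Elongases then add carbon units at the endoplasmic reticulum, while stearoyl-CoA desaturases introduce the first double bond into saturated chains and the Fads enzymes add double bonds to dietary polyunsaturated fatty acids. In liver and cultured cells many of these genes are transcribed under SREBP transcription factors, which also drive cholesterol synthesis, and Scd1 responds in liver to the sterol-activated receptor LXR as well.

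Of the 10 genes, 4 were lower in Taz knockout and 0 higher by edgeR's quasi-likelihood test at an adjusted p under 0.05, namely Acly, Scd1, Scd2 and Fads2. Among all genes tested 7.94% were called, 3.94% lower and 3.99% higher. Acly averaged 602.6 CPM ± 41.9 in knockout and 761.6 CPM ± 35.4 in wild-type clones, and Scd2 averaged 1151 CPM ± 211.6 in knockout and 1752 CPM ± 79.9 in wild type (SD, n = 6 each). CPM is the count scaled to the library total after TMM scaling between libraries. The fitted log2 fold change was below 0 for all 10 genes, against 51.7% of all genes tested, and the median over the 10 was -0.34, against -0.01 over all genes. Elovl1 and Elovl5 were at nearly equal levels in both genotypes, and their sign turned when some clones were left out (Elovl1 without 2D, Elovl5 without 2F, 3G or 4K) and when 3G and 2D were both left out. By edgeR 8 members had an unadjusted p under 0.05, all with a lower level in knockout, against 23.7% of all genes in either direction.

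**Figure D1:**
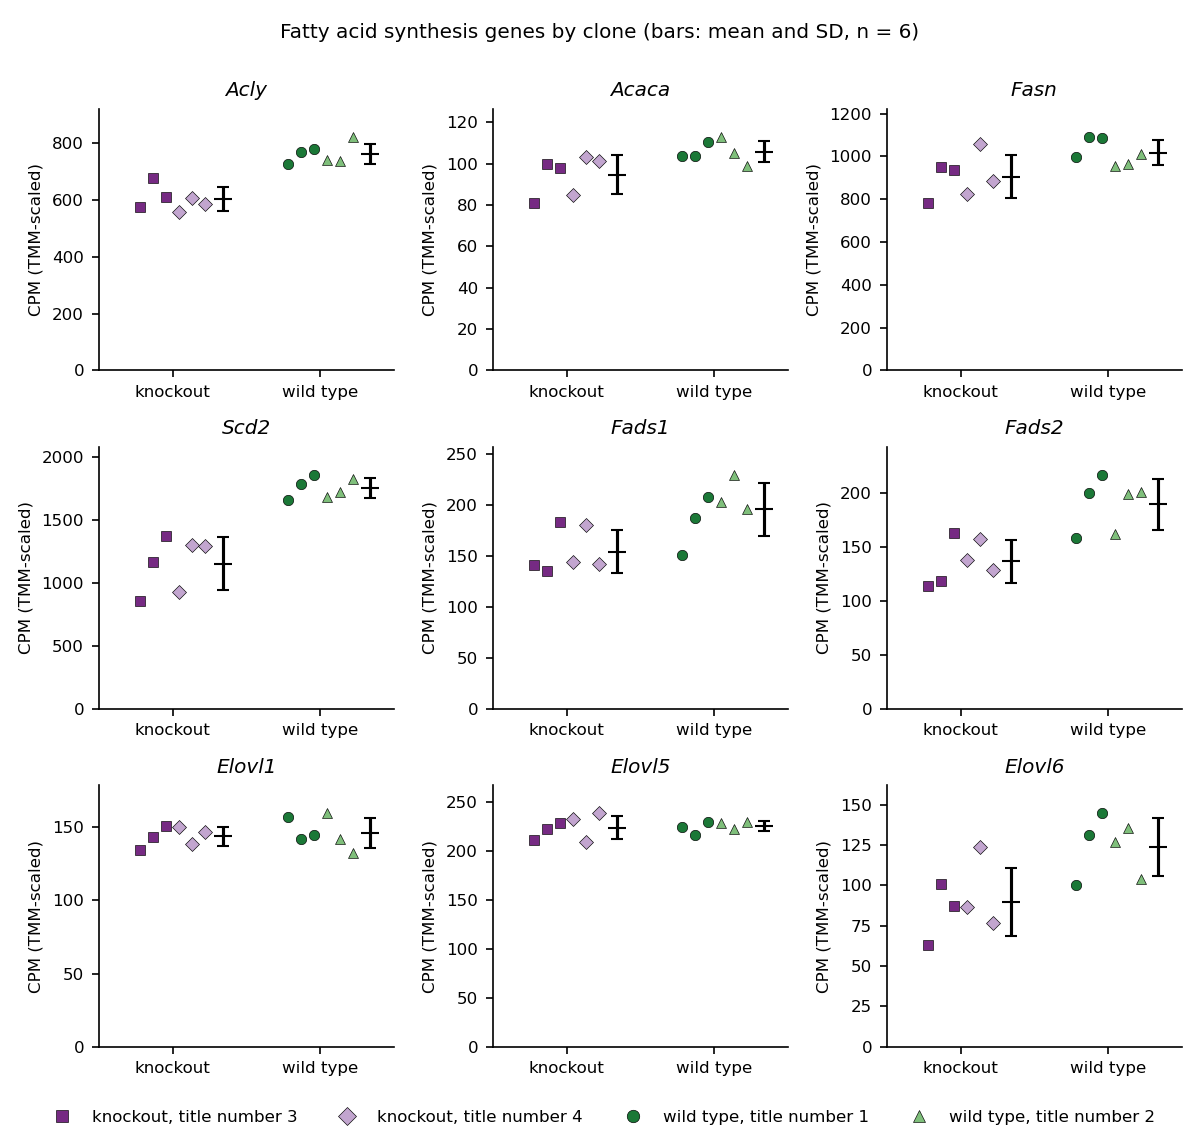
CPM after TMM scaling (y axis, from 0) of 9 of the genes in each clone, knockout left of wild type, with marker shape and colour by the number in the clone name and bars for mean and SD (n = 6 per genotype). Knockout and wild-type clones do not overlap for Acly and Scd2, overlap in part for Fads1, Fads2, Elovl6, Acaca and Fasn, and lie on the same level for Elovl1 and Elovl5.

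Library totals ran from 18970252 to 23658158 counts in knockout and from 21966954 to 27431544 counts in wild-type clones. Taz itself averaged 3.35 CPM ± 0.685 in knockout and 39.2 CPM ± 2.58 in wild-type clones (n = 6 each), with no overlap. The 12 markers of granulocyte-monocyte progenitors were all tested and 0 were called by edgeR, with 0 at an unadjusted p under 0.05 and 0 called by DESeq2. Their log2 fold changes were below 0 for 8 and above 0 for 4, from -2.04 for Elane to 0.27 for Fcgr3. Elane spread widely, at 56.0 CPM ± 52.6 in knockout and 231 CPM ± 321 in wild type. The summed level of the 12 markers ran from 13072 to 20868 CPM in knockout and from 14124 to 23077 CPM in wild type. Of this sum, Mpo averaged 9811 CPM in knockout and 9998 CPM in wild type. Markers of fetal hepatocytes, cells rich in lipogenic enzymes, summed to 182 CPM in clone 3G, between 0.854 and 3.57 CPM in the other knockout clones and between 0.910 and 1.65 CPM in wild type. Serpina1a was at 0 in every clone, and Fgb was at 0 CPM in all wild-type clones. Markers of mature neutrophils summed to between 15.9 and 146 CPM in knockout clones and to 1550.1 CPM in wild-type clone 2D, where the remaining 5 wild-type clones held at most 115 CPM. Of the 7 tested neutrophil markers 6 had a log2 fold change below 0 and 1 was called, Cxcr2, a neutrophil chemokine receptor gene, at 2.64 CPM ± 1.41 in knockout and 8.23 CPM ± 3.73 in wild type (adjusted p = 0.0411 by edgeR). Erythroid markers summed to 763 to 1075 CPM in knockout and 504 to 860.1 CPM in wild type, with 0 of 4 tested called by edgeR, 1 at an unadjusted p under 0.05 and 1 called higher by DESeq2. Mast cell and basophil markers summed to 2620.0 to 5243 CPM in knockout and 1448 to 4522 CPM in wild type, with 0 of 5 tested called by edgeR or DESeq2 and 2 at an unadjusted p under 0.05. Over all genes edgeR called 7.94%, 23.7% had an unadjusted p under 0.05 and DESeq2 called 6.11% higher. The part of these marker levels in the results below was not tested, apart from leaving out 3G and 2D. Without 3G and 2D, 3 members were called lower and 0 higher, where 2.75% of all genes were lower and 3.54% higher, and Scd1 was not called (log2 fold change -4.49, adjusted p = 0.0907 by edgeR). In bulk RNA a lower level per cell and a lower number of expressing cells cannot be told apart.

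RefSeq promoter windows were available for Acly, Acaca, Fasn, Fads2, Elovl1, Elovl5 and Elovl6, with 2 windows for Elovl1. The 250 bases before the start site are printed below for Acly and Fads2, which were lower in knockout, and for Fasn and Elovl5, which were not called, because SREBP and its partner NF-Y act on promoters of lipogenic genes. Capitals mark the GC box GGGCGG, the CCAAT box CCAAT and the E-box CACGTG on either strand. In build GRCm38.p6 the windows lie at chr11:100528001-100528250 (minus strand), chr19:10101504-10101753 (minus strand), chr11:120824548-120824797 (minus strand) and chr9:77917115-77917364 (plus strand), each written 5′ to 3′ on the strand of the gene.
Acly: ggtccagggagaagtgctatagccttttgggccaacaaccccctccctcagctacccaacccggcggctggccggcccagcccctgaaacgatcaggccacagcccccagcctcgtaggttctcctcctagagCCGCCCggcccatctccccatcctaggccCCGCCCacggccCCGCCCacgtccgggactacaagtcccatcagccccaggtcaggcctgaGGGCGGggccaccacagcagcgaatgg
Fads2: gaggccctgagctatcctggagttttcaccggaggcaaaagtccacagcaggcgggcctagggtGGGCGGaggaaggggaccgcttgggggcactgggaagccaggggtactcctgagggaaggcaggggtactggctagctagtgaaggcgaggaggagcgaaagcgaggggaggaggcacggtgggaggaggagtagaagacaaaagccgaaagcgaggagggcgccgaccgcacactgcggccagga
Fasn: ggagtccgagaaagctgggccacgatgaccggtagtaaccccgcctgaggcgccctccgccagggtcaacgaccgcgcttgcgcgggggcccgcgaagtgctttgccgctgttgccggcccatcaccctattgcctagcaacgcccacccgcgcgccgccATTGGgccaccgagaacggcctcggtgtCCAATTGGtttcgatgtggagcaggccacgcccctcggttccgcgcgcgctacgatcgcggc
Elovl5: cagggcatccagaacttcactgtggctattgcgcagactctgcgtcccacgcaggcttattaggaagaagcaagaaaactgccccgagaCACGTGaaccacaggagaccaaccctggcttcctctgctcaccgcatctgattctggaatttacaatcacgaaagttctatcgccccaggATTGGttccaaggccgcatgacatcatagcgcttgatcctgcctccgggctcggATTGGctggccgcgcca

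The Acly window held 4 GC boxes, the Fads2 window 1 GC box, the Fasn window 3 matches to the CCAAT box, of which 2 overlap on opposite strands, and the Elovl5 window 2 CCAAT boxes and 1 E-box. Over all 32851 windows, 32.7% held a GC box, 33.8% a CCAAT box and 6.02% an E-box. Of the 8 member windows, 4 held a GC box, 3 a CCAAT box and 1 an E-box. The core of the sterol regulatory element, TCACNCCAC, was in 0 of the 8 and in 1.05% of all windows. These are matches of letters within these windows only.

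Of the 3 genes that lead from citrate to palmitate, Acly was called. Acly (ENSMUSG00000020917, chromosome 11) had 558, 597 and 678 CPM as the lowest, median and highest of the knockout clones, against 727, 753 and 822 CPM in wild-type clones. Every knockout clone lay below every wild-type clone, which held for 2.84% of all genes tested in this direction. The log2 fold change was -0.34 (SE 0.05, adjusted p = 0.00207 by edgeR), and the mean level fell by 20.9%. The call of Acly held in all 12 fits without a single clone, with adjusted p between 0.00107 and 0.00733.

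Fasn (ENSMUSG00000025153, chromosome 11), the multidomain synthase that makes palmitate, had 781, 912 and 1056 CPM as the lowest, median and highest values in knockout, against 954, 1004 and 1091 CPM in wild type. The genotypes overlapped, with clone 4K at the highest knockout value and inside the wild-type range. Its log2 fold change of -0.17 (SE 0.07, adjusted p = 0.165 by edgeR) did not pass the test, and the 95% interval reached from -19.8% to -1.14%. This interval and those below are unadjusted, so they can exclude no change where the adjusted p misses the threshold. Acaca (ENSMUSG00000020532, chromosome 11), which makes malonyl-CoA, had 81.0, 98.9 and 103 CPM in knockout clones, against 99.0, 105 and 113 CPM in wild type. For Acaca too the clones overlapped and the test was not passed (log2 fold change -0.16, SE 0.06, adjusted p = 0.145 by edgeR, interval -18.7% to -1.60%). Of the 50-base stretches of the Acaca transcripts in GENCODE release M21, 30.4% also occur in other genes, nearly all in Gm5182, and whether this lowered its count in either genotype was not tested.

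Transcripts of stearoyl-CoA desaturase, which makes oleate and palmitoleate from saturated chains, came almost wholly from Scd2 in these cells. The enzyme itself was not measured. Scd2 (ENSMUSG00000025203, chromosome 19) is the isoform known from brain and embryonic tissue of the mouse. It had 857, 1229 and 1366 CPM as the lowest, median and highest values in knockout, against 1653, 1751 and 1854 CPM in wild type. The highest knockout clone, 3I, lay below the lowest wild-type clone, 1A. Its log2 fold change was -0.61 (SE 0.11, adjusted p = 0.00669 by edgeR), the mean level fell by 34.3%, and the call held in all 12 fits without a single clone (adjusted p between 0.00746 and 0.0174). Knockout clones also varied more among themselves, with a coefficient of variation of 18.4% in knockout and 4.56% in wild type. The clones 3G and 4J were the lowest of the knockout, at 857 and 929 CPM, while the other knockout clones stood between 1165 and 1366 CPM.

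Scd1 (ENSMUSG00000037071, chromosome 19), the main desaturase of mouse liver and fat, was scarce and uneven. In knockout clones it had 33 counts in 3G, 2 in 3H, 81 in 3I, 1 in 4J, 16 in 4K and 8 in 4L, which are levels of 1.74, 0.102, 3.44, 0.0425, 0.750 and 0.402 CPM. In wild-type clones it had 149 counts in 1A, 446 in 1B, 290 in 1C, 385 in 2D, 1985 in 2E and 5 in 2F, which are levels of 5.70, 16.2, 13.2, 16.7, 73.3 and 0.207 CPM. Of the wild-type clones, 5 lay above every knockout clone, and 2F lay below 4 of the knockout clones. The counts of 3H and 4J were at or under the 3 counts that a count of 0 allows, which correspond to 0.109 to 0.158 CPM in the 12 libraries and cover counting error only.

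On the means Scd1 stood at 1.08 CPM ± 1.31 in knockout and 20.9 CPM ± 26.5 in wild type (SD, n = 6 each), and clone 2E held the largest part of the wild-type sum. The log2 fold change of Scd1 was -4.26 (SE 1.16, adjusted p = 0.0441 by edgeR). Its call was near the threshold. It was lost in 10 of the 12 fits without a single clone, with adjusted p up to 0.084, and remained without 2F (adjusted p = 0.0231) and without 3I (adjusted p = 0.0445). Without 2E the log2 fold change was -3.26 (adjusted p = 0.0811). Limma-voom did not call it (log2 fold change -4.11, adjusted p = 0.28), while DESeq2 did (adjusted p = 0.00187). The spread of Scd1 within genotypes was an SD of 2.30 on the log2 scale, above that of 97.3% of the 668 tested genes of similar abundance, whose median SD was 0.48.

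**Figure D2:**
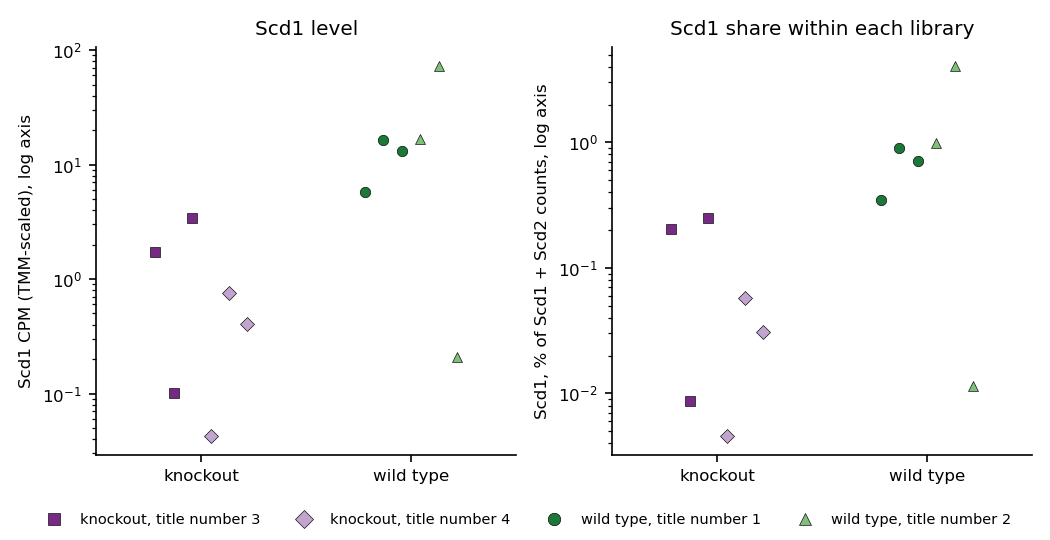
Scd1 in each clone, knockout left of wild type, as CPM after TMM scaling (left, log axis) and as a percent of the counts of Scd1 and Scd2 together (right, log axis), with markers by the number in the clone name. Wild-type clone 2E is highest at 73.3 CPM, and wild-type clone 2F at 0.207 CPM lies among the knockout clones.

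Within each library, Scd1 made up 0.0926% ± 0.107 of the counts of Scd1 and Scd2 together in knockout and 1.17% ± 1.47 in wild type (SD, n = 6 each). This share does not depend on library scaling. It was lower in knockout by 1.08 percentage points (difference -1.08, exact two-sided permutation p = 0.013, where 0.00216 is the smallest p that 6 against 6 clones can give). In knockout the share ran from 0.00457% in 4J to 0.251% in 3I, and in wild type from 0.0114% in 2F to 4.09% in 2E. Without 2E the difference was -0.50 percentage points (exact permutation p = 0.0152). Of the 50-base stretches of Scd1 transcripts, 4.56% also occur in other genes of the family or elsewhere, among them 145 stretches shared with Scd2, and whether the smallest Scd1 counts hold reads of Scd2, which had 16297 to 49035 counts, was not tested. Scd3 and Scd4, named here because they share such stretches with Scd1, did not pass the filter on low counts, with means of at most 0.420 CPM in either genotype.

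Both desaturases of polyunsaturated fatty acids are neighbours on chromosome 19. Fads2 (ENSMUSG00000024665) catalyses the first and rate-limiting desaturation of linoleate and alpha-linolenate. Its lowest, median and highest values were 114, 133 and 163 CPM in knockout, against 158, 199.8 and 217 CPM in wild type. Of the knockout clones, only 3I reached into the wild-type range, and wild-type clones 1A and 2D lay just below it. The log2 fold change was -0.47 (SE 0.11, adjusted p = 0.021 by edgeR), the mean level fell by 28.0%, and the call held in all 12 fits without a single clone (adjusted p between 0.0149 and 0.0473). Fads1 (ENSMUSG00000010663), which acts later in the same pathway to make arachidonate and eicosapentaenoate, had 135, 143 and 183 CPM in knockout, against 150.1, 199 and 229 CPM in wild type. Its log2 fold change of -0.34 (SE 0.11, adjusted p = 0.072 by edgeR) missed the threshold, with an interval from -32.9% to -7.37%. It passed without clone 1A (adjusted p = 0.0279), the wild-type clone with the lowest Fads1.

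None of the 3 elongase genes was called by edgeR. Elovl6 (ENSMUSG00000041220, chromosome 3), which lengthens palmitate to stearate, had 62.8, 86.9 and 124 CPM in knockout, against 100.3, 129 and 145 CPM in wild type. The clones overlapped, because knockout clones 3H and 4K lay inside the wild-type range. Its log2 fold change of -0.46 (SE 0.15) was as large as that of Fads2, but its spread was larger and the test was missed (adjusted p = 0.0804 by edgeR, interval -42.2% to -9.19%). Without 4K it passed (adjusted p = 0.0253).

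Elovl1 (ENSMUSG00000006390, chromosome 4), an elongase of saturated very long chains, averaged 144 CPM ± 6.50 in knockout and 146 CPM ± 10.2 in wild type. Elovl5 (ENSMUSG00000032349, chromosome 9), which lengthens polyunsaturated chains between the steps of Fads2 and Fads1, averaged 224 CPM ± 11.8 in knockout and 225 CPM ± 5.17 in wild type (SD, n = 6 each). Neither passed the test by edgeR (adjusted p = 0.82 for Elovl1 and adjusted p = 0.921 for Elovl5). The 95% intervals were -8.54% to 5.84% for Elovl1 and -5.78% to 4.94% for Elovl5, which do not reach the fall of 20.9% seen for Acly. Counting took no account of strand, and Elovl1 shares 53 exonic bases with Cdc20 on the other strand in GENCODE release M21, so reads of that stretch cannot be assigned to either gene.

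**Figure D3:**
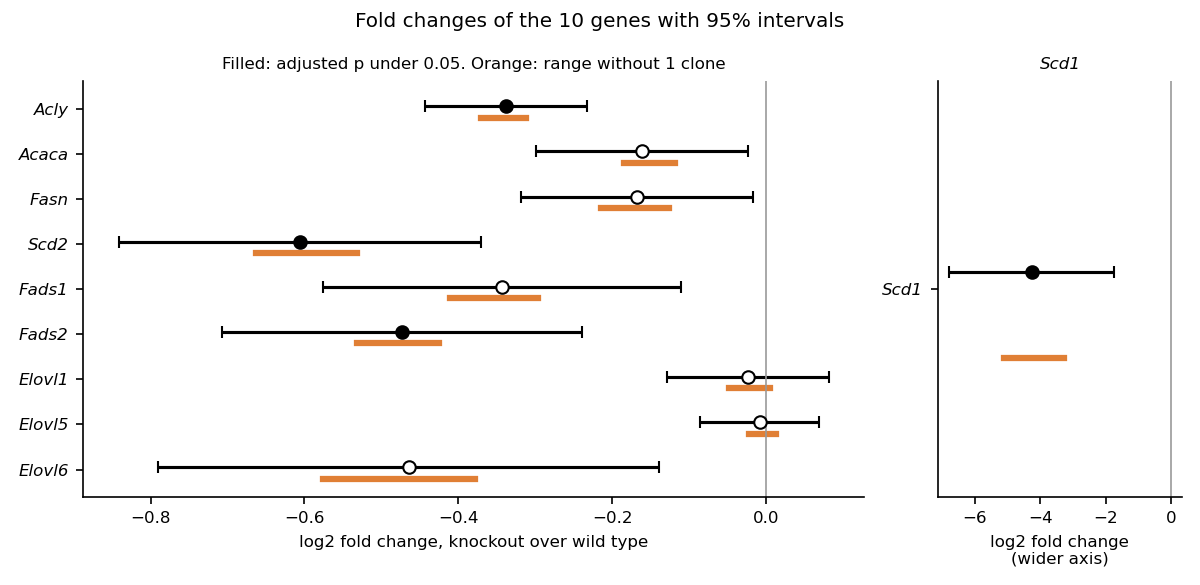
Log2 fold change of knockout over wild type for each gene (x axis) with its unadjusted 95% interval, filled where the adjusted p was under 0.05, and in orange the range over the 12 fits without a single clone. Scd1 has its own, wider axis. Scd2 lies at -0.61, Fads2 at -0.47 and Acly at -0.34, while the intervals of Elovl1 and Elovl5 include 0.

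Levels of different genes were set side by side as CPM per kilobase of merged exons, using exon lengths of GENCODE release M21. Merged exons were longest for Acaca, at 17074 bases, and 30.4% of its 50-base stretches also occur in other genes. Whether this lowered its level per kilobase was not tested. In knockout the order was Scd2 (211), Acly (114), Fasn (82.8), Elovl5 (63.6), Elovl1 (52.8), Fads2 (41.4), Fads1 (32.0), Elovl6 (14.0), Acaca (5.55) and Scd1 (0.221 CPM per kilobase). In wild type it was Scd2 (321), Acly (144), Fasn (92.9), Elovl5 (64.0), Fads2 (57.5), Elovl1 (53.6), Fads1 (40.6), Elovl6 (19.3), Acaca (6.20) and Scd1 (4.27 CPM per kilobase). Both orders were alike apart from Fads2 and Elovl1. In knockout the clone values of Elovl1 and Fads2, and of Fads2 and Fads1, overlapped. In wild type those of Elovl5 and Fads2, of Fads2 and Elovl1, and of Acaca and Scd1 overlapped. Summed over the 10 genes, the level was 3504 CPM ± 371.3 in knockout and 4538 CPM ± 184.1 in wild type (SD, n = 6 each), of which Scd2 made up 32.6% in knockout and 38.6% in wild type.

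Single clones set much of the spread within knockout. Clone 3G was the lowest knockout clone for 6 of the 10 genes, and 3G and 4J each lay below every wild-type clone for 8 of them. Clone 4K lay below every wild-type clone for 4 genes and 3I for 5. The same count for single clones was not made over all genes tested. Whether the 10 genes stand out by it is therefore not known. In wild type, 1A was the lowest clone for 5 genes. Clone 3G also carried the hepatocyte transcripts and the smallest library. It had counts in 18536 genes, more than any other clone, with 1B next at 16845. Without 3G the log2 fold changes were -0.32 for Acly, -0.53 for Scd2 and -0.42 for Fads2, and these 3 were still called lower by edgeR.

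Knockout and wild-type clones were also compared by the number in the clone name, in a model with 4 groups of 3 clones. The 4 knockout minus wild-type pairs share libraries and are given side by side. By edgeR 0 members were called in any pair. In simulated counts, 3 against 3 clones in this model recovered 39% of changes of 0.5 on the log2 scale and 75% of changes of 1. Members with an unadjusted p under 0.05 numbered 5 for 3 minus 1, 6 for 3 minus 2, 4 for 4 minus 1 and 5 for 4 minus 2. Of all genes tested, 16.5%, 14.3%, 12.6% and 12.4% had such a p in these 4 pairs in that order. Few genes of any kind were called at an adjusted p under 0.05, namely 1.57% of all genes tested for 3 minus 1, 0.719% for 3 minus 2, 0.508% for 4 minus 1 and 0.262% for 4 minus 2. Scd2 had log2 fold changes of -0.64, -0.62, -0.59 and -0.57 in the 4 pairs in that order, and Acly of -0.29, -0.30, -0.37 and -0.39. Elovl6 differed more, with -0.58, -0.55, -0.39 and -0.35. Scd1 had -2.72, -4.08, -4.88 and -6.24. Within a genotype, 0 members were called by edgeR between clone numbers 2 and 1 or between 4 and 3, where 0% of all genes were called. In both, 0 members had an unadjusted p under 0.05, against 3.52% of all genes for 2 minus 1 and 2.06% for 4 minus 3.

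Of 9 tested genes for acetyl-CoA, malonyl-CoA and NADPH supply, 3 were lower and 0 higher by edgeR, with a median log2 fold change of -0.46. Over all genes tested 3.94% were lower and 3.99% higher. Of the 3 called genes, Slc25a1 supplies the cytosolic pathway directly, and Acat2 is also counted among the cholesterol genes. Slc25a1, the mitochondrial citrate carrier that delivers the substrate of Acly, averaged 104 CPM ± 3.79 in knockout and 143 CPM ± 12.1 in wild type (adjusted p = 0.000578 by edgeR). Acss1, which activates acetate in mitochondria, averaged 27.03 CPM ± 7.94 in knockout and 64.0 CPM ± 17.8 in wild type (adjusted p = 0.0128). Acat2, the cytosolic acetoacetyl-CoA thiolase that leads acetyl-CoA to cholesterol, averaged 58.2 CPM ± 5.81 in knockout and 101 CPM ± 11.5 in wild type (adjusted p = 0.00046). A further 3 of the 12 genes fixed for this list did not pass the filter on low counts. By DESeq2 5 of the list were lower and 1 higher, where it called 6.34% of all genes lower and 6.11% higher.

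Of 7 tested genes of the elongation cycle, 0 were called by edgeR or DESeq2 and 0 had an unadjusted p under 0.05. The other 3 of the 10 fixed genes of this list had too few counts to be tested. Of 7 tested genes of other desaturases and their electron supply, 1 was lower and 1 higher by edgeR and by DESeq2, against 7.94% of all genes called by edgeR, and 4 had an unadjusted p under 0.05. Cyb5b, which encodes the cytochrome b5 of the outer mitochondrial membrane, was lower (366 CPM ± 17.3 in knockout and 413 CPM ± 21.8 in wild type, adjusted p = 0.0301). Cyb5r1, a cytochrome b5 reductase gene, was higher, at 63.0 CPM ± 5.75 in knockout and 34.9 CPM ± 5.04 in wild type (log2 fold change 0.85, SE 0.09, adjusted p = 0.000481 by edgeR). Of 9 tested genes for acyl-CoA synthetases and binding proteins, Dbi, the acyl-CoA-binding protein gene, was lower (99.1 CPM ± 10.3 in knockout and 135 CPM ± 6.29 in wild type, adjusted p = 0.00216), and 0 were higher. In that list 4 had an unadjusted p under 0.05, and DESeq2 called 3 lower and 0 higher. Over all genes 23.7% had such a p, and 3.94% were called lower by edgeR and 6.34% by DESeq2.

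The separate mitochondrial pathway of fatty acid synthesis had 0 of 6 tested genes called by edgeR or DESeq2 and 0 at an unadjusted p under 0.05. Glycerolipid synthesis had 0 of 10 called by edgeR, 1 at an unadjusted p under 0.05 and 1 called higher by DESeq2. Over all genes edgeR called 7.94%, 23.7% had such a p and DESeq2 called 6.11% higher. The kinase AMPK, which restrains acetyl-CoA carboxylase by phosphorylation, had 0 of 6 tested subunit and activator genes called by either tool and 0 at an unadjusted p under 0.05.

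Among 15 tested genes that control lipogenic transcription, 2 were lower and 0 higher by edgeR, with a median log2 fold change of 0.01. Over all genes tested 3.94% were lower and 3.99% higher. Srebf2, the transcription factor gene tied mainly to cholesterol synthesis, averaged 338 CPM ± 19.98 in knockout and 397 CPM ± 27.8 in wild type (log2 fold change -0.23, SE 0.05, adjusted p = 0.0209). Insig1, which holds SREBP in the endoplasmic reticulum and is itself an SREBP target, averaged 113 CPM ± 14.8 in knockout and 156 CPM ± 25.9 in wild type (log2 fold change -0.46, SE 0.12, adjusted p = 0.0371). Srebf1, the relative tied to fatty acid synthesis, averaged 167 CPM ± 14.9 in knockout and 194 CPM ± 18.4 in wild type and missed the threshold (log2 fold change -0.22, SE 0.07, adjusted p = 0.0952). Scap, the SREBP escort protein gene, stood at 76.9 CPM ± 4.15 in knockout and 83.7 CPM ± 5.29 in wild type (adjusted p = 0.148), and Insig2 at 17.8 CPM ± 0.663 in knockout and 18.5 CPM ± 1.59 in wild type (adjusted p = 0.651). Of the LXR genes, Nr1h2 stood at 74.8 CPM ± 3.62 in knockout and 73.9 CPM ± 4.48 in wild type (adjusted p = 0.859). Nr1h3 and Mlxipl, which encodes ChREBP, did not pass the filter, with means of at most 0.170 CPM in either genotype.

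Of 5 tested LXR targets, Lpcat3, which puts polyunsaturated chains into phospholipids, was lower (108 CPM ± 4.98 in knockout and 137 CPM ± 8.51 in wild type, adjusted p = 0.00134), and 0 were higher. Of 7 tested PPAR targets, Plin2, a lipid droplet coat gene, was lower (77.9 CPM ± 7.23 in knockout and 95.2 CPM ± 8.32 in wild type, adjusted p = 0.0302), and 0 were higher. In the list of cholesterol synthesis and uptake, 20 of 21 tested genes were lower and 0 higher by edgeR, with a median log2 fold change of -0.54. Over all genes edgeR called 3.94% lower and 3.99% higher, shares that also stand beside the LXR and PPAR counts. In 19 of the 21 the genotypes did not overlap, against 2 of the 10 fatty acid genes and 5.38% of all genes tested. Both sets were chosen with results of these data known, and the difference between them was not tested.

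**Figure D4:**
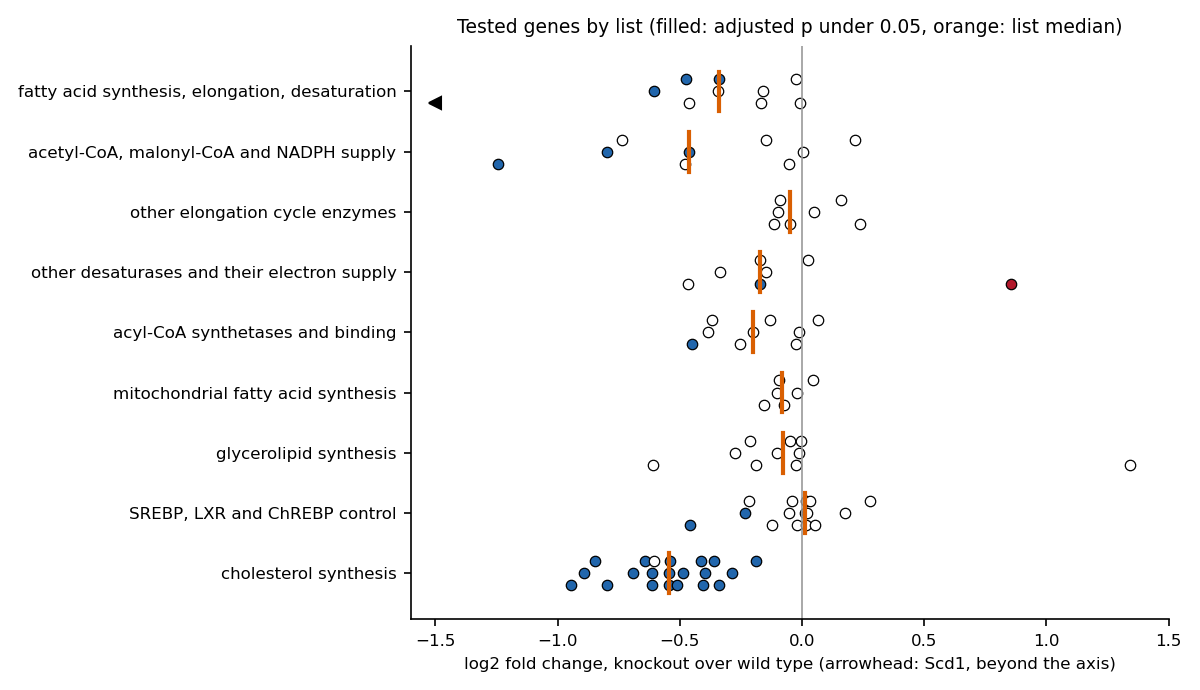
Log2 fold change of knockout over wild type (x axis) for each tested gene of 9 lists, filled blue (lower) or red (higher) where the adjusted p was under 0.05, with the median of each list in orange and an arrowhead for Scd1, which lies beyond the axis. The 10 fatty acid genes have a median of -0.34, between that of cholesterol synthesis at -0.54 and that of the other elongation cycle enzymes at -0.05.

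Other fits gave other counts of members. DESeq2 called 6 lower and 0 higher, adding Fads1 (adjusted p = 0.0226) and Elovl6 (adjusted p = 0.0255), where it called 6.34% of all genes lower and 6.11% higher. Limma-voom without a block called 3 lower and 0 higher, leaving out Scd1, where 3.62% of all genes were lower and 4.21% higher. With the clone number as a correlated block it called 7 lower and 0 higher, where 9.52% of all genes were lower and 9.91% higher, adding Acaca, Fasn, Fads1 and Elovl6. The estimated correlation within blocks was negative, at -0.17. For Fasn the log2 fold change was -0.17 in both limma-voom fits, with an SE of 0.0686 without the block and 0.0546 with it. With counts summed by clone number edgeR called 3 members lower and 0 higher, where 0.841% of all genes were lower and 1.14% higher. On those sums the 4 genes added by the block were not called, with adjusted p = 0.0957 for Acaca, 0.169 for Fasn, 0.114 for Fads1 and 0.0673 for Elovl6. Acly, Scd2 and Fads2 were lower in every one of these fits.

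Genes whose clone profile was most like that of Fasn were sought among the 9399 genes averaging 2 or more in log2 CPM, by the mean absolute difference of centred log2 CPM over the 12 clones. They were Mknk2 (0.0517), Arrdc1 (0.0536), Arl5a (0.0548) and Map3k4 (0.0588), where the median gene differed from Fasn by 0.164. Of these, Mknk2 and Arl5a were called lower (adjusted p = 0.0342 and adjusted p = 0.0251 by edgeR). For Scd1 the nearest were Taz (1.58), Pak1 (1.75), Acot11 (1.84) and Arhgap31 (1.85). These are large beside the mean absolute deviation of Scd1 from its own mean, 2.49. The median gene differed from Scd1 by 2.49 as well. By this measure none of the 9399 genes searched followed the profile of Scd1 closely. Scd1 itself averaged 1.24 in log2 CPM, below the floor of 2, so genes as scarce as Scd1 were not searched.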

How the data were processed

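For each clone the authors deposited unscaled read counts by Ensembl gene. STAR, HTSeq, edgeR and build mm9 are named in the submitters' processing notes, with no versions, and the deposited files' names say that counting took no account of strand. The annotation release is not given in the sources used here. Neither library sizes nor tests used the HTSeq totals that name no gene: reads with several places (43.6% ± 0.611 of records, SD, n = 12), outside genes (3.55%) and ambiguous (1.59%). Of 37583 identifiers, 32860 had a symbol.

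Counts of the 12 clones were fitted with edgeR 4.0.16 in R 4.3.3 (TMM, filterByExpr by genotype, quasi-likelihood F-test, Benjamini-Hochberg over all 11819 genes tested). For edgeR, SE is the absolute log2 fold change over the square root of F, and for limma-voom it is the moderated standard error. CPM was scaled by TMM, and log2 CPM used a prior count of 2. DESeq2 1.42.0 and limma 3.58.1 were alternatives, beside other scalings, no filter, sums by clone number and fits without single clones. The main fit was tried on simulated counts of independent clones, with 200 changed genes picked above a floor of abundance. At 12 clones 88% of changes of 1 on the log2 scale and 68% of changes of 0.5 were recovered, with 10 false calls. Likeness between same-numbered clones was not simulated. The labels do not say that clones came from separate embryos, so p-values measure the spread between these clones.

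Promoters are from RefSeq (GRCm38.p6). Members and lists were chosen with earlier results of these data known. Named genes were the 10 members, Taz, up to 4 called genes per list with the smallest adjusted p, 8 fixed regulators and the 4 genes most like Scd1 and Fasn. Some cell type markers are named as well. Of cholesterol synthesis, whose genes are given as counts, only Acat2 is named.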

Additional observations from a re-analysis of the deposited data

Results flagged for a closer look

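Wild-type clone 2E stood apart from the other wild-type clones in Scd1, at 73.3 CPM, where the next highest clone had 16.7 CPM and the lowest 0.207 CPM. Its gap to the nearest clone was 0.775 of the range of the group, above Dixon's 95% critical value. The same clone stood apart in the share of Scd1 among Scd1 and Scd2 counts, at 4.09%, where the next was 0.981% (0.762 of the range), which restates the same counts. A total of 22 groups of 6 clones was examined, and chance marks about 1 group in 20. Scd1 of 2E was not accompanied by a high Scd2 level (1719 CPM, against a wild-type mean of 1752 CPM). Both ratios were taken on the linear scale, and none was taken on the log2 scale. In log2 CPM of Scd1, 2E stood at 6.20 and the next highest clone, 2D, at 4.07. At the low end 2F stood at -1.77 and the next lowest clone, 1A, at 2.53.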

How the results depend on the processing

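Acly, Scd2 and Fads2 were called lower, and Acaca, Fasn, Elovl1 and Elovl5 were not called, in each of the 12 fits without a single clone. Members called lower numbered 3 to 4 in those fits, and members called higher 0. With the clone number as a correlated block in limma-voom 7 members were lower, where 9.52% of all genes were called lower, with an estimated correlation of -0.17. With counts summed by clone number 3 members were lower, and Acaca, Fasn, Fads1 and Elovl6, which the block added, were not called. Over all genes, 472 were higher and 466 lower. These counts were 801 and 830 by DESeq2, 271 and 280 with no filter, 158 and 116 with counts summed by clone number, and 1171 and 1125 with the block. Without single clones they ran from 294 to 558 higher and from 272 to 535 lower. In the fits without a single clone Elovl1 ran from -0.047 to 0.0053 and Elovl5 from -0.022 to 0.013 on the log2 scale. Without both 3G and 2D, chosen after seeing the data, they were 0.023 and 0.013. Scd1 was also not called with no filter (adjusted p = 0.0691), with summed counts (0.0997) or with the block (0.108); the cause was not tested. The difference in Scd1 share ran from -1.31 to -0.50 percentage points without single clones, and the log2 ratio of Scd1 to Scd2 differed by -3.58 (exact permutation p = 0.0455). No paired analysis was possible because the genotypes share no clone number. Scd1 had 1 to 81 counts in knockout and 5 to 1985 in wild type, so counting error is large for its lowest clones; how much of its spread between clones comes from depth was not tested.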
